A study of Mus musculus with 2 samples.

Results

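The cilia and flagella associated proteins described here are the 54 genes, of 20476 in the deposited table, whose symbols are Cfap, Spag, Spef, Drc or Rsph followed by a number. The rule uses names and no measured value, but it was chosen with earlier results of these data known. The genes are 31 Cfap, 10 Spag, 2 Spef, 3 Drc and 8 Rsph genes. Total testicular cells of adult mice of the strain C57BL/CJ;ICR were profiled by droplet-based 3′ single-cell RNA sequencing, with 1 library of wild-type mice and 1 library of mice lacking miR-202 (miR-202-/-). The sources used here state neither the number of animals per library nor the deleted sequence. Both libraries share one table, in which barcodes carry the suffix 1 or 2 (called a mark here); no source ties a mark to a genotype, so the barcodes were treated as 1 pool and the genotypes were not compared. Values are given under each mark, without a test.

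A sperm tail is a motile cilium built around the axoneme, a ring of doublet microtubules around a central pair. Dynein arms slide the doublets, radial spokes and the central apparatus set when they do so, the nexin-dynein regulatory complex ties neighbouring doublets together, and further proteins line the inside of the doublets. Spermatocytes begin to transcribe many of these genes during meiotic prophase, round spermatids grow the axoneme, and transcription stops as the nucleus condenses. RFX factors, which bind paired sites called the X-box, and the forkhead factor FOXJ1 are the classical activators of ciliary genes, MYBL1 (A-MYB) is an activator of pachytene transcription, and CREM is an activator of spermatid genes.

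Molecules were counted as unique molecular identifiers (UMIs): 158740437 over the 12935 barcodes of mark 1 and 168967776 over the 15310 barcodes of mark 2. Marker genes and depth, with none of the 54 genes among them, gated 10371 barcodes (36.7%) into 9 germ cell stages, from 188 spermatogonia to 3041 elongating spermatids. Dividing cells and dividing gate are short for the diplotene or dividing gate, which does not separate diplotene from dividing cells. Median depth differed between gates, from 8027 UMIs per barcode in condensing spermatids to 35934.5 in pachytene spermatocytes. A further 73 barcode sequences occurred under both marks. Levels are CPM, the UMIs of a gene per 1000000 UMIs summed over a gate, and UMIs per barcode are the same sums divided by barcodes. The kit reads 3′ ends, so 1 molecule gives at most 1 UMI whatever the length of the gene. In such a suspension free RNA enters every droplet: 8045 ungated barcodes under 4500 UMIs, with a median of 4038, served as its measure. Whether they hold free RNA alone was not tested.

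Promoters carried by RefSeq for GRCm38.p6 were found for 43 of the 54 genes, each from 250 bases before to 50 bases after the gene's start in RefSeq. They are shown for 5 genes whose levels the results turn on: the paralogs Spag6l and Spag6, which were high at different stages, the dynein assembly factor Cfap298, the spoke-base gene Cfap206, and Spag4, which peaked in early elongating spermatids. Capitals mark every match, on either strand, to GTTGCC (an RFX site), the X-box pair (an RFX site facing its inverted copy, with 2 free bases between them and 2 within each), TGTTTAC (forkhead), TGACGTCA (the CREM element) or TAACNGTT (MYB); a GTTGCC match can lie within an X-box pair. Sequences run 5′ to 3′ on the strand of the gene.
Spag6l: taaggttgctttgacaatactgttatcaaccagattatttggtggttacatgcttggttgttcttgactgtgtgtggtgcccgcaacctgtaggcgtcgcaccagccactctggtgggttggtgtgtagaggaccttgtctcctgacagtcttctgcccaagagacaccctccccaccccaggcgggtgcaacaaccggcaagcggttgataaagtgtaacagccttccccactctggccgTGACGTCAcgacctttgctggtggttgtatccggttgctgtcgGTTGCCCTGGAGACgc
Spag6: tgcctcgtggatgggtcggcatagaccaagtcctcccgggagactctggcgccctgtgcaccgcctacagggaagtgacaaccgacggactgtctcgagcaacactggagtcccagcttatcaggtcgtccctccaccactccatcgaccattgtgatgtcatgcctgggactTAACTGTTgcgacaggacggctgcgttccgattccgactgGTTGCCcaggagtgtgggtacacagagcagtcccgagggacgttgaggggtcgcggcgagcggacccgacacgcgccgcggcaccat
Cfap298: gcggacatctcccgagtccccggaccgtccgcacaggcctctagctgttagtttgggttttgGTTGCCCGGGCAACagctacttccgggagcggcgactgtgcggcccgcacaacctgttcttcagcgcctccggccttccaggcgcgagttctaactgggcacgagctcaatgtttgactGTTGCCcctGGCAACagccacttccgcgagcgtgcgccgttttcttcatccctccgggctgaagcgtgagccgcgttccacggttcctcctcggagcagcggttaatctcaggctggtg
Cfap206: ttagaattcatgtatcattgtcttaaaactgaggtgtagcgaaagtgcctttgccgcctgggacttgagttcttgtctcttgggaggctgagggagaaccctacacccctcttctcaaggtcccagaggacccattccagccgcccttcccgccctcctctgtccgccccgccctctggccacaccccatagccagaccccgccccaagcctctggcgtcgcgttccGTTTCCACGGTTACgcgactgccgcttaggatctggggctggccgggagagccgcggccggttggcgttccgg
Spag4: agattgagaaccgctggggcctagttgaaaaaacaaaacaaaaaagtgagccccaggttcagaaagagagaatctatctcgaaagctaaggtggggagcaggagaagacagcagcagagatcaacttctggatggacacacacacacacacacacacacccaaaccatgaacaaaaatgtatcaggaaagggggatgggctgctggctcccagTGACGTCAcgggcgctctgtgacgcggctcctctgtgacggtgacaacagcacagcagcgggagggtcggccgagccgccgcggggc
The Spag6l window, chr16:16829314-16829613 on the minus strand, held GTTGCC, the X-box pair and the CREM element. The Spag6 window, chr2:18698772-18699071 on the plus strand, held GTTGCC and the MYB letters, and neither the X-box pair nor the CREM element was found in it; its RefSeq start lies inside the GENCODE span given for Spag6 further on, so it does not cover the GENCODE start. The Cfap298 window, chr16:90934800-90935099 on the minus strand, held 4 matches to GTTGCC and 1 X-box pair. This window too lies inside the GENCODE span of its gene and does not reach the GENCODE start at 90935114. The Cfap206 window, chr4:34730157-34730456 on the minus strand, held 1 X-box pair, and the Spag4 window, chr2:156064963-156065262 on the plus strand, held 1 CREM element. Over the 43 genes, 16 windows (37.2%) held GTTGCC, against 14.1% of the windows of all 27025 genes with a promoter and 16.2% of the 11901 of these with at least 100 UMIs in the germ gates. The X-box pair was in 7 windows (16.3%), against 2.16% and 3.27%: those of Cfap126, Cfap206, Cfap298, Cfap77, Rsph9, Spag5 and Spag6l. TGTTTAC was in 2 (4.65%, against 4.05% and 3.29%), TGACGTCA in 2 (4.65%, against 2.03% and 3.44%) and TAACNGTT in 1 (2.33%, against 1.68% and 1.52%). A match describes letters and does not show that a factor binds.

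Summed over the 54 genes, UMIs per barcode were 401.3 in pachytene spermatocytes, 485.8 in diplotene or dividing spermatocytes, 338 in early round, 288 in later round and 187 in early elongating spermatids. They were 54.2 in elongating and 35.5 in condensing spermatids. Spermatogonia held 38.7 and preleptotene to zygotene spermatocytes 39.8. The gates of somatic cells held 36.3 (Sertoli), 32.0 (Leydig), 33.8 (macrophage) and 34.8 (T or NK), and the ungated barcodes of low depth 34.2. Spermatogonia, entry spermatocytes, condensing spermatids and somatic cells therefore lay close to the level of free RNA, and the stages from pachytene to early elongation lay above it under both marks.

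**Figure D1:**
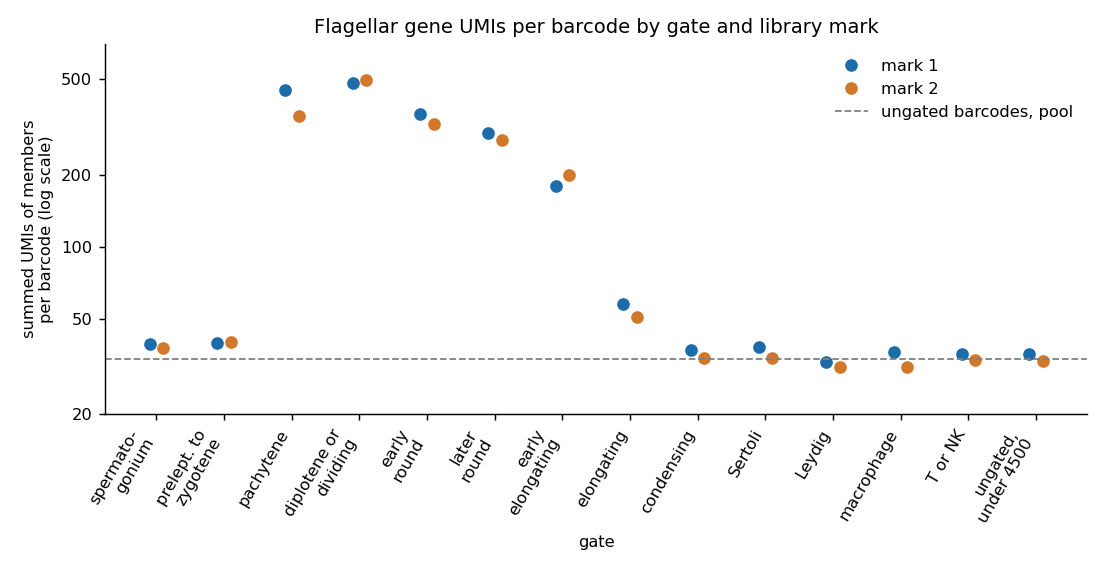
Summed UMIs of the 54 genes per barcode (log scale) in each gate, with 1 point per library mark and a dashed line at the ungated barcodes of low depth (34.2). The 5 gates from pachytene to early elongating spermatids stand between 180 and 494, and the somatic, entry and condensing gates lie near the line.

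Single genes were set against the same ungated barcodes, as UMIs per barcode at least 2-fold higher under both marks with at least 20 UMIs each. In the deeper gates a gene of equal CPM could pass through depth alone, so the share of all genes stands beside each count. In pachytene spermatocytes 47 of 52 tested members passed, where 67.3% of all tested genes did. The counts were 50 of 53 in diplotene or dividing spermatocytes (62.8% of all genes), 52 of 53 in early round (75.8%) and 52 of 53 in later round spermatids (79.1%), and 43 of 52 in early elongating spermatids (54.6%). In elongating spermatids 12 of 53 passed (32.6%) and in condensing spermatids 4 of 52 (11.8%), namely Cfap410, Cfap69, Rsph3a and Rsph3b. In spermatogonia 4 of 52 passed (40%), Cfap300, Spag5, Spag7 and Spag9, and in preleptotene to zygotene spermatocytes Spag5 and Spag9 did (37.7%). No member of 52 passed in a somatic gate, where 9.48% (Sertoli), 1.53% (Leydig), 3.29% (macrophage) and 1.53% (T or NK) of all tested genes did. Of 6 markers of ciliated epithelium, Mcidas was not in the table, Sntn reached at most 0.346 CPM in any gate (Sertoli) and Ccno at most 8.31 (T or NK). Tuba1a, a tubulin that many cell types express, was at 187 CPM in Sertoli and 28.05 in Leydig gates and at most 4.46 in a germ gate. Foxj1 was at 93.9 CPM in early round spermatids, 27.6 to 43.6 in the somatic gates and 7.68 in elongating spermatids. Deup1 was at 251 CPM in later round and 138 in elongating spermatids, and at 94.7 to 148 in the somatic gates. The ungated barcodes of low depth were at 40.9 CPM of Foxj1 and 156 of Deup1. The part of such cells in the members' levels was not tested.

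Each stage was then compared with the stage before it by a rule of size, met where CPM differed at least 2-fold one way under mark 1 and mark 2 alike and the higher stage held 20 UMIs or more under each. Rose and fell are used of genes that met it. Into the preleptotene to zygotene gate no member of 44 tested passed in either direction (all genes: 1.15% higher, 0.569% lower). Into pachytene 29 of 51 rose (13.6% of all genes) and 2, Cfap100 and Spag4, fell (20.4%); the median log2 difference over tested members was 1.22 (mark 1) and 1.20 (mark 2), and over all tested genes -0.34 and -0.31. Per barcode the entry gate held 0.239 UMIs of Cfap100 and 1.38 of Spag4, against 0.269 and 1.15 in the ungated barcodes, and neither fall passed with free RNA subtracted or with composition factors (TMM) in place of total UMIs. Over all genes the split into pachytene was 1709 higher and 2562 lower, and 3794 and 1310 with TMM, under which 40 members rose and none fell. Into the diplotene or dividing gate 9 of 52 rose (11% of all genes) and none fell (24.7%): Cfap126, Cfap157, Cfap161, Cfap45, Cfap47, Cfap58, Cfap77, Rsph6a and Spag6. Into early round spermatids 7 of 53 rose (21.7%), Cfap100, Cfap126, Cfap157, Cfap58, Cfap77, Spag4 and Spag6, and 3 fell (13%), Cfap46, Rsph1 and Spef1.

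From early to later round spermatids none of 53 members passed in either direction (8.26% of all genes higher, 2.18% lower). The cut between these gates ran through a continuum, with 422 early and 382 later barcodes within 2 marker UMIs per 10000 of it. Into early elongating spermatids 1 of 52 rose, Cfap221 (9.6%), and 20 fell (18.4%), among them Spag6, Spag6l, Cfap36, Cfap58 and Drc1; with median-ratio factors 9 (17.3%) and 7.54% of all genes fell. Into elongating spermatids 18 of 52 fell (21.5%) and none rose (2.16%); with TMM, which shifts every gene up by 0.86 on the log2 scale at this step, 5 of 52 members (9.62%) and 7.84% of all genes fell and 1 member rose; with median-ratio factors 5 members and 8.43% of all genes fell and 1 member rose. Into condensing spermatids Spag4 alone fell (6.2%) and none rose (2.18%).

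**Figure D2:**
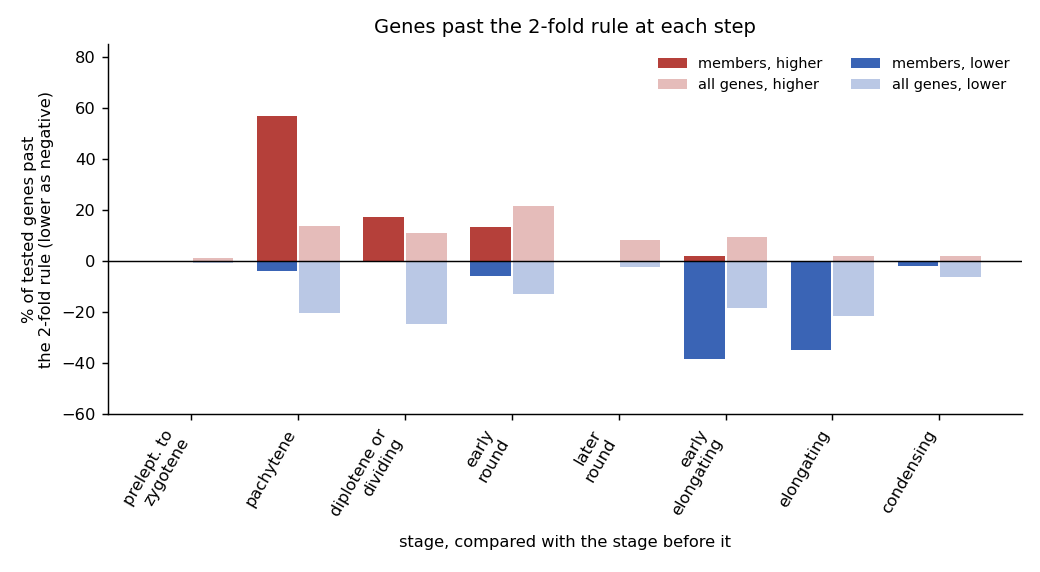
Share of tested genes past the 2-fold rule at each step (higher above 0, lower below 0), members in full colour and all genes in pale colour. Members exceed all genes among the higher calls into pachytene (29 of 51) and among the lower calls into early elongating (20 of 52) and elongating spermatids (18 of 52); at the last step the shares came close with TMM or median-ratio factors (5 of 52 members).

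Of the 52 members with at least 100 UMIs over the germ gates, 11 were highest in pachytene (21.2%, against 14.9% of 16119 genes), 17 in diplotene or dividing spermatocytes (32.7%, against 15.03%) and 14 in early round spermatids (26.9%, against 6.77%). Another 5 were highest in later round spermatids (9.62%, against 9.49%) and 2, Cfap221 and Spag4, in early elongating spermatids (3.85%, against 11.01%). One each (1.92%) was highest in preleptotene to zygotene spermatocytes (Spag9, against 13.9% of genes), elongating (Rsph10b, against 3.83%) and condensing spermatids (Rsph3b, against 4.47%), and none in spermatogonia (against 20.6%). By UMIs per barcode none of the 52 was highest in the entry, elongating or condensing gates. The highest stage was not remade with TMM or median-ratio factors. TMM shifts every gene up by 0.21 on the log2 scale from early to later round spermatids, and some leads were narrow. Rsph9 and Cfap45, for example, were 1.02-fold and 1.05-fold higher in early than in later round spermatids. Cfap36 was 1.02-fold higher in diplotene or dividing than in early round cells. The highest stage was the same under both marks for 45 of the 54. Cfap73, a modifier of an inner dynein arm, and Rsph4a had fewer than 100 UMIs, 84 and 28.

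**Figure D3:**
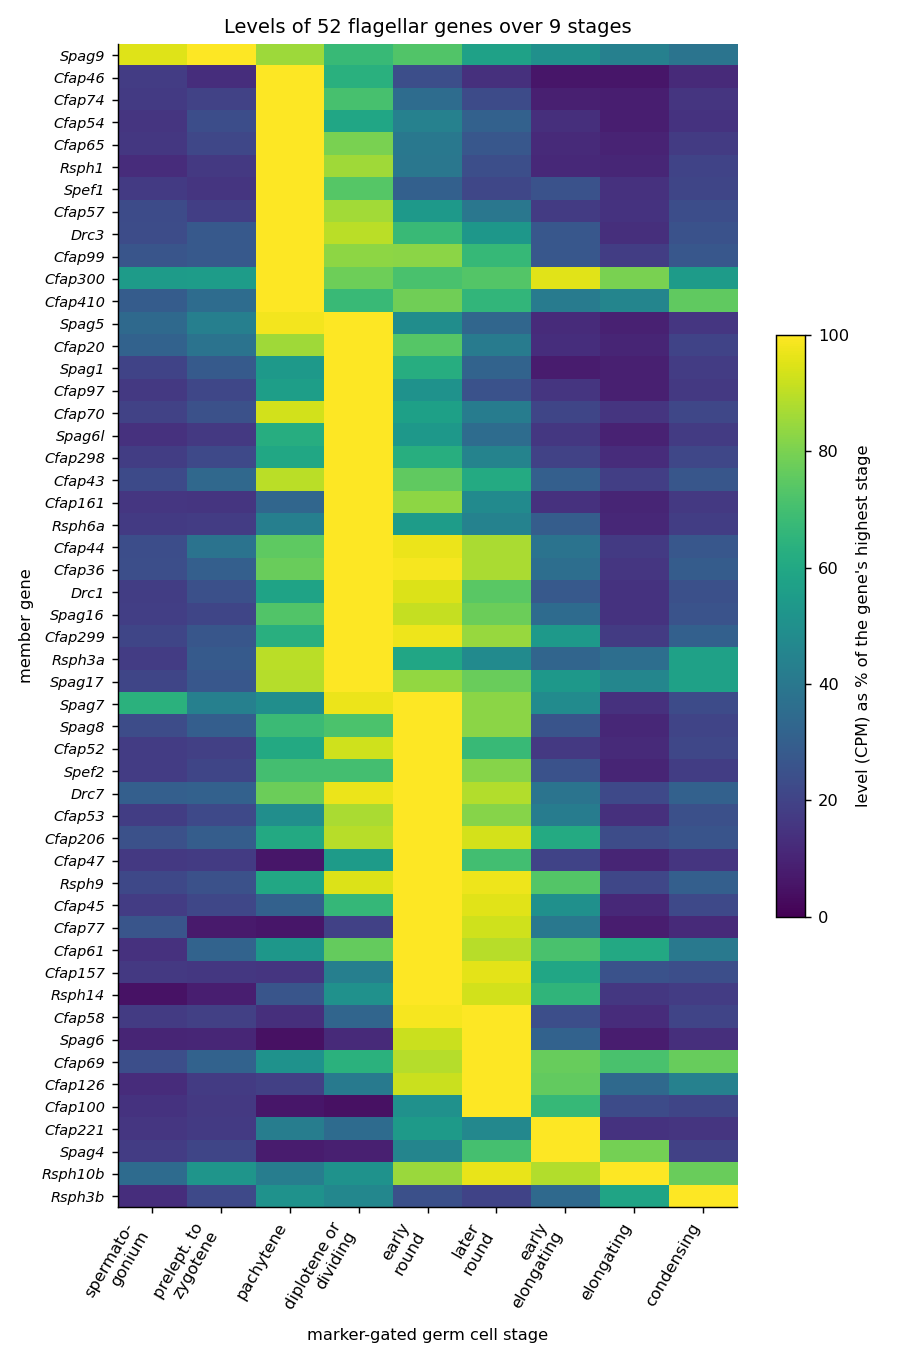
Pooled CPM of 52 members (rows, ordered by their highest stage) over 9 germ cell stages (columns), as a percentage of each gene's highest stage. The rows fill a band from pachytene to later round spermatids, with 42 members highest in pachytene, diplotene or early round cells.

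The balance between meiotic and round spermatid levels spanned a wide range. Later round spermatids were at least 2-fold above pachytene spermatocytes for 11 of 52 members (21.2%, against 25.4% of all genes), and pachytene spermatocytes were at least 2-fold above later round spermatids for 12 (23.1%, against 32.7%), with 1 CPM added to each level. Chosen after the data were seen, TMM and median-ratio factors each turned these counts into 17 (32.7%, against 31.1% and 29.7% of all genes) and 7 (13.5%, against 25.7% and 25.5%). The extremes were both central apparatus genes, Spag6 at 21.9-fold (95% interval 20.1 to 23.9) and Cfap46, 7.13-fold the other way. From later round to elongating spermatids 41 members (78.8%) were at least 2-fold lower, against 37.9% of all genes; with TMM 21 were (40.4%, against 17.1%) and with median-ratio factors 16 (30.8%, against 11.8%).

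**Figure D4:**
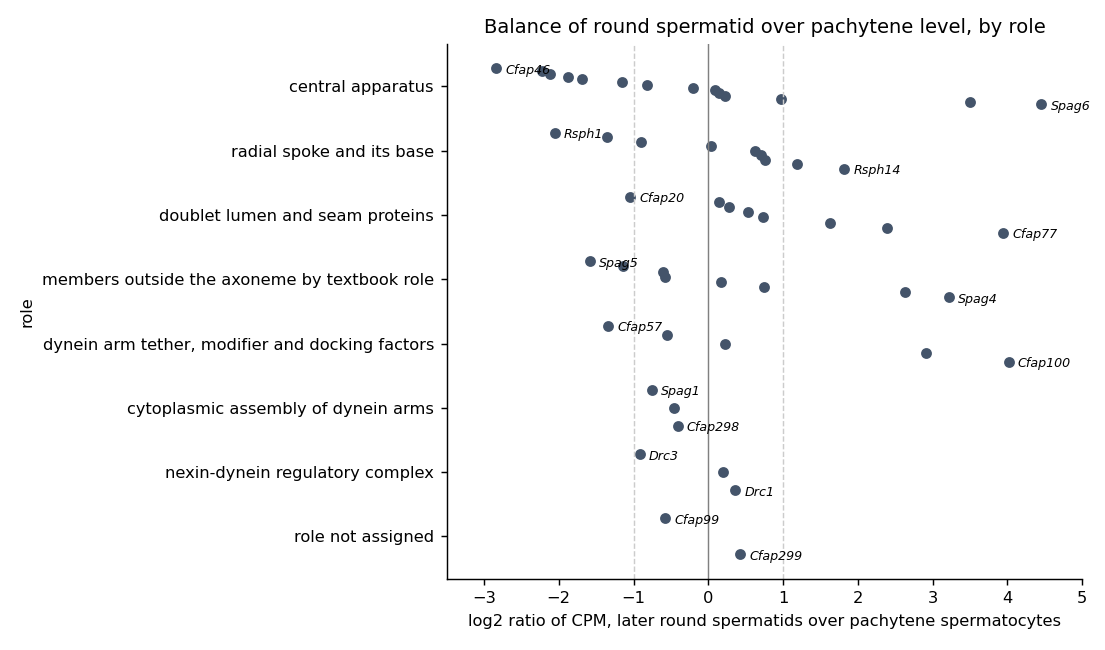
Log2 ratio of pooled CPM in later round spermatids over pachytene spermatocytes for 52 members, 1 point each, grouped by role and spread vertically for legibility; dashed lines mark 2-fold. The central apparatus, radial spoke, dynein tether, doublet lumen and outside-axoneme groups each hold genes past 2-fold on both sides. The central apparatus runs from Cfap46 to Spag6.

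The central apparatus had 14 members. Spag17, a large protein of a central pair projection (chr3:99885406-100143322), measured 541 CPM under mark 1 and 489 under mark 2 in pachytene spermatocytes, 596 and 564 in diplotene or dividing, 459 and 441 in later round and 274 and 261 in elongating spermatids. It rose into pachytene, by 3.54-fold (95% counting interval 3.07 to 4.10) under mark 1 and 3.03-fold (2.60 to 3.54) under mark 2. No later step passed the rule for it, and with 4.82 UMIs per barcode in elongating spermatids it was 2.85-fold (2.78 to 2.91) above the ungated barcodes. Spag17os and Wdr3 overlap it on the other strand, and the sources used here do not say whether counting used strand.

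Spag6l and Spag6 encode closely related armadillo-repeat proteins of the central pair. Spag6l (chr16:16753016-16829456) measured 73.4 and 82.7 CPM in the entry gate under marks 1 and 2, 311 and 267 in pachytene, 457 and 480 in diplotene or dividing, 247 and 252 in early round and 153 and 175 in later round cells. Spag6 (chr2:18694032-18750413) measured 20.2 and 26.1 CPM in pachytene, 55.1 and 67.8 in diplotene or dividing, 450 and 473 in early round, 473 and 529 in later round and 138 and 191 in early elongating cells. The order of the genes turned over between meiosis and the round spermatid under both marks, and at each of these stages their values did not overlap. Spag6 rose 8.17-fold (7.44 to 8.99) and 6.98-fold (6.35 to 7.68) from dividing cells to early round spermatids. Both genes fell into early elongation, Spag6 by 3.42-fold and 2.76-fold and Spag6l by 2.15-fold and 2.08-fold, a call that Spag6l lost with TMM and with median-ratio factors. Their longest transcripts were 84.8% identical where they aligned, and no stretch of 50 bases was shared by their last 500 bases, the region that the kit reads.

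Cfap46, Cfap54, Cfap74 and Cfap221, named like Cfap47 and Cfap69 after their values were seen, are counterparts of the proteins that form 1 projection of the algal central pair. Cfap46 (74.7 and 62.5 CPM), Cfap54 (62.2 and 53.7) and Cfap74 (78.7 and 77.7) were all highest in pachytene and stood at 9.37 and 9.94, 19.5 and 17.0, and 17.1 and 18.7 CPM in later round spermatids. Cfap221 followed another course. It measured 14.5 and 13.6 CPM in pachytene, 14.9 and 15.9 in later round and 32.7 and 33.6 in early elongating spermatids, a rise of 2.19-fold (1.83 to 2.62) and 2.11-fold (1.71 to 2.60). Cfap47 was the one member on the X chromosome (chrX:79266558-79517351 in RefSeq), which is silenced in pachytene cells of males. Cfap47 was at 1.60 and 1.11 CPM in pachytene and 24.1 and 20.9 in early round spermatids. Cfap69 measured 296 and 278 CPM in later round, 206 and 203 in elongating and 220 and 219 in condensing spermatids. The ungated barcodes were at 224 CPM. Per barcode Cfap69 held 8.87 UMIs in later round, 3.68 in elongating and 1.97 in condensing spermatids, the last 2.18-fold (2.11 to 2.26) above the ungated barcodes. The other members of this role, Cfap65, Cfap70, Spag16, Spef1 and Spef2, peaked between 47.5 CPM (Spef1) and 207 CPM (Spag16).

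**Figure D5:**
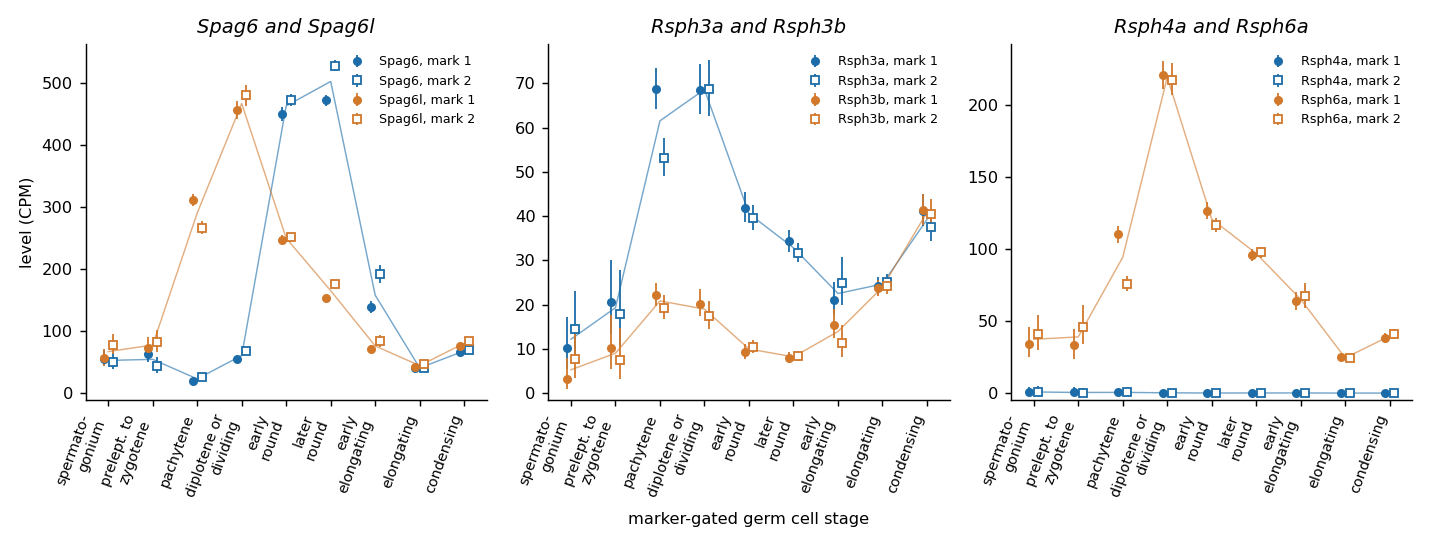
CPM by stage of Spag6 and Spag6l, Rsph3a and Rsph3b, and Rsph4a and Rsph6a, with filled points for mark 1, open points for mark 2, exact Poisson 95% intervals and lines through the pool. Spag6l peaks in the diplotene or dividing gate and Spag6 in later round spermatids, and Rsph4a stays near 0. Both Rsph3 genes are higher by CPM in condensing than in elongating spermatids, as was the median member (log2 0.69 and 0.64). Neither passed the 2-fold rule there. Per barcode both were lower in condensing than in elongating cells (Rsph3a 0.351 against 0.444 UMIs, Rsph3b 0.365 against 0.430).

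Radial spoke genes held the highest level of the whole group. Rsph1, a spoke head protein (chr17:31255019-31277383), measured 562 and 624 CPM in the entry gate, 3565 and 3460 in pachytene, 2948 and 3096 in diplotene or dividing, 1357 and 1431 in early round and 798 and 887 in later round cells. It rose into pachytene by 6.34-fold (5.89 to 6.84) and 5.54-fold (5.13 to 5.99) and fell into early round spermatids by 2.17-fold (2.13 to 2.21) and 2.16-fold (2.13 to 2.20), the latter a call lost with TMM. A pachytene barcode held 136.7 Rsph1 UMIs on average, against 6.39 in an ungated barcode of low depth. A Rsph1 UMI was present in 99.6% of those ungated barcodes and in 100% of Sertoli barcodes, so its detection in a single barcode does not mark a spermatocyte.

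Rsph1 made up 3516 of the 4336 CPM to which the 10 spoke genes summed in pachytene. Cfap206, at the base of a spoke (chr4:34688559-34730206), kept a flatter course, with 459 and 409 CPM in pachytene, 639 and 641 in diplotene or dividing, 725 and 711 in early round and 427 and 458 in early elongating cells. Rsph9, a spoke head protein (chr17:46122035-46144216), measured 173 and 158 CPM in pachytene, 266 and 284 in early round and 189 and 227 in early elongating cells. Both passed the rule downward only into elongating spermatids, a call lost with TMM and with median-ratio factors. Cfap61, Rsph10b and Rsph14 peaked at 33.9, 37.0 and 25.9 CPM; Rsph10b shares its strand and part of its span with Pms2, and reads there cannot be told apart.

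Rsph6a and Rsph4a encode homologous spoke head proteins, the former of sperm tails and the latter of other motile cilia. Rsph6a (chr7:19054690-19074447) measured 110 and 75.9 CPM in pachytene, 221 and 218 in diplotene or dividing and 126 and 117 in early round cells. Rsph4a (chr10:33905111-33916021) gave 28 UMIs over all germ gates and never exceeded 0.849 CPM under either mark. Rsph3a and Rsph3b, spoke stalk genes, lie on chromosome 17 (chr17:7945614-7979824 and chr17:6904413-6948682). Their longest transcripts were 99.2% identical, and 55.3% of the 50-base words in the last 500 bases of Rsph3a transcripts occurred in those of Rsph3b (58.2% the other way), so the split of reads between them is uncertain. As counted, Rsph3a was highest in meiosis (68.7 and 53.2 CPM in pachytene, 68.6 and 68.6 in diplotene or dividing), and Rsph3b in condensing spermatids (41.4 and 40.4 CPM, against 7.99 and 8.35 in later round spermatids). In condensing spermatids Rsph3b was 6.73-fold (6.02 to 7.53) and Rsph3a 2.25-fold (2.08 to 2.45) above the ungated barcodes per barcode. Per barcode Rsph3b was higher still in pachytene, with 0.81 UMIs (14.9-fold) against 0.365 in condensing cells, so its highest stage differed between the scales.

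The nexin-dynein regulatory complex was represented by Drc1, a scaffold subunit (chr5:30281388-30366695), Drc3 (chr11:60353329-60394341) and Drc7 (chr8:95055103-95078141). All 3 rose into pachytene, Drc1 and Drc7 not with stricter gates. Drc1 measured 95.1 and 88.5 CPM in pachytene, 165 and 151 in diplotene or dividing, 117 and 119 in later round and 42.0 and 47.8 in early elongating cells. Drc3 was highest in pachytene, at 123 and 123 CPM, and Drc7 in early round spermatids, at 50.3 and 46.7 CPM. Drc1 fell into early elongation by 2.78-fold (2.44 to 3.18) and 2.50-fold (2.14 to 2.93); both this fall and that of Drc7 were lost with median-ratio factors, and for Drc3 (61.7 to 28.9 CPM and 68.3 to 40.4) the rule was not met under mark 2.

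Among the dynein tether, modifier and docking genes, Cfap43 encodes a tether of inner dynein arms (chr19:47736857-47919287). It was highest in the diplotene or dividing gate, with 150 and 146 CPM in pachytene, 172 and 158 in diplotene or dividing and 106 and 96.7 in later round cells. By pooled CPM pachytene was 1.47-fold above later round cells, short of 2-fold. Itprip overlaps Cfap43 on the same strand, and Gsto1 and Gsto2 do on the other. Cfap58 (chr19:47937675-48035387) was at 26.2 and 20.3 CPM in pachytene, 63.7 and 49.8 in diplotene or dividing, 185 and 166 in early round, 183 and 169 in later round and 38.7 and 48.6 in early elongating cells. Cfap58 rose into the diplotene or dividing gate and again into early round spermatids, there by 2.90-fold (2.64 to 3.19) and 3.33-fold (2.97 to 3.73). It then fell 4.74-fold (4.15 to 5.43) and 3.48-fold (2.99 to 4.08) into early elongation. Cfap100, a modifier of an inner arm (chr6:90403479-90428797), was at 6.08 and 5.89 CPM in dividing cells, 70.9 and 62.4 in early round and 136 and 125 in later round spermatids. In pachytene cells Cfap100 had 0.312 UMIs per barcode, against 0.269 in the ungated barcodes of low depth. Cfap44, the partner of Cfap43, and Cfap57 peaked at 70.03 and 110 CPM.

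Of the 8 doublet lumen and seam genes, Cfap126, Cfap45 and Cfap77 were at least 2-fold higher in later round spermatids than in pachytene by pooled CPM, and Cfap20 was 2.06-fold lower. Cfap45 (chr1:172520801-172545870) measured 227 and 199 CPM in pachytene, 471 and 453 in diplotene or dividing, 706 and 686 in early round and 80.3 and 81.1 in elongating cells. It rose 2.07-fold (1.97 to 2.17) and 2.27-fold (2.15 to 2.40) into the dividing gate and fell 3.89-fold and 5.02-fold into elongating spermatids. Cfap126, also called Flattop (chr1:171113918-171126967), measured 82.1 and 85.5 CPM in pachytene, 179 and 180 in dividing, 413 and 394 in early round and 447 and 429 in later round cells, and passed the rule at both of the first steps. Cfap53 measured 199 and 172 CPM in pachytene, 382 and 376 in early round and 51.0 and 55.0 in elongating cells. Cfap20, a seam protein, was highest in dividing cells at 323 CPM. Cfap52, Cfap77, Cfap161 and Spag8 peaked between 41.8 CPM (Cfap77) and 225 CPM (Cfap161).

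Of the 3 factors that assemble dynein arms in the cytoplasm, Cfap298 and Spag1 were highest in the diplotene or dividing gate. Cfap298 (chr16:90925809-90935114) measured 171 and 176 CPM in the entry gate, 480 and 455 in pachytene, 776 and 798 in diplotene or dividing, 486 and 495 in early round and 339 and 365 in later round cells, a rise into pachytene of 2.81-fold (2.45 to 3.23) and 2.59-fold (2.23 to 3.01). Spag1 (chr15:36178099-36235621) measured 66.7 and 62.3 CPM in pachytene, 128 and 111 in diplotene or dividing, 35.96 and 40.4 in later round and 9.47 and 9.05 in early elongating cells. Cfap300 (chr9:8021672-8042823) stayed between 16.3 and 33.4 CPM in every stage under each mark, and its 0.479 UMIs per barcode in elongating spermatids were 4.201-fold (3.86 to 4.57) above the ungated barcodes. Its highest pooled level, 33.4 CPM in pachytene, was only 1.05-fold above that in early elongating spermatids (31.9 CPM).

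The members outside the axoneme followed several courses. Spag4, a SUN-domain protein that joins the tail to the nucleus (chr2:156065175-156070617), measured 41.4 and 48.7 CPM in pachytene, 276 and 263 in early round, 425 and 409 in later round, 590 and 590 in early elongating, 470 and 464 in elongating and 111 and 116 in condensing cells. It rose 5.08-fold (4.61 to 5.61) and 5.21-fold (4.67 to 5.83) into early round spermatids and fell 4.24-fold (4.01 to 4.49) and 4.01-fold (3.81 to 4.22) into condensing spermatids. In elongating spermatids Spag4 held 8.40 UMIs per barcode, 7.29-fold (7.11 to 7.46) above the ungated barcodes, and in condensing spermatids 1.02, below them at 0.880-fold (0.845 to 0.917).

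Cfap36, an ARL3-binding protein (chr11:29221532-29247409), measured 1076 and 994 CPM in pachytene, 1355 and 1330 in diplotene or dividing, 1326 and 1320 in early round, 1166 and 1177 in later round and 448 and 552 in early elongating cells, a fall from later round to early elongating spermatids of 2.61-fold (2.50 to 2.71) and 2.13-fold (2.04 to 2.23) that was lost with median-ratio factors. Cfap97 (chr8:46151771-46195590) measured 530 and 421 CPM in pachytene, 892 and 813 in diplotene or dividing and 211 and 223 in later round cells; Gm15634 overlaps it on the same strand and Snx25 on the other. Spag9, a scaffold of kinase signalling and vesicle transport, measured 115 and 102 CPM in spermatogonia, 113 and 116 in the entry gate, 101 and 93.9 in pachytene and 47.6 and 40.7 in condensing spermatids, and no single step passed the rule for it. Per barcode Spag9 was 4.15-fold (3.65 to 4.71) above the ungated barcodes in spermatogonia and 11.05-fold (10.45 to 11.7) in pachytene. Spag5, a mitotic spindle protein, Spag7, Cfap157 and Cfap410 peaked between 51.9 CPM (Cfap410) and 126 CPM (Cfap157). Of the genes with no role assigned, Cfap299 was highest in dividing cells (302 and 313 CPM) and Cfap99 never exceeded 5.76 CPM under either mark.

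Axoneme and ciliary genes of other names were counted from 7 lists, 113 of whose 121 listed genes were in the table. Into pachytene, where 29 of 51 members and 13.6% of all genes rose, 10 of 17 dynein arm subunits rose and 1 fell, and 10 of 16 dynein assembly and docking genes rose and 1 fell. Of the radial spoke, regulatory complex and ruler proteins of other names 9 of 18 rose and 1 fell, of the central apparatus proteins 5 of 10 rose and 1 fell, and of the doublet lumen proteins 4 of 15 rose and 1 fell. Intraflagellar transport genes, whose products carry cargo along the growing axoneme, rose in 18 of 25 cases and fell in none. The largest rises were those of Dnaaf4 (19.7 to 211 CPM under mark 1, 17.9 to 203 under mark 2), a dynein assembly factor, Dnah7c (18.9 to 133 and 11.3 to 117) and Ttc30a1 (7.10 to 59.9 and 10.3 to 77.0). Of 9 transcription factors of ciliary genes, Rfx2 (37.1 to 115 and 27.3 to 106 CPM) and Tcfl5 (139 to 517 and 179 to 460) were among 4 that rose. Rfx1 (24.5 to 5.92 and 28.2 to 7.11) and Foxj1 (16.6 to 6.24 and 21.6 to 7.94) fell. Mybl1 and Crem, among the 9, also served as markers of the pachytene and early round gates, so their calls are partly set by the gating. None of the 7 falls of listed genes passed with free RNA subtracted, and that of Foxj1 did not with TMM; per barcode Foxj1 was at 0.211 UMIs in the entry gate, 0.273 in pachytene and 0.165 in the ungated barcodes. Under each mark the entry gate held 12 to 24 UMIs of Dnah7c, whose reads may be split with Dnah7a and Dnah7b, 9 to 11 of Ttc30a1 and 21 to 23 of Foxj1.

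Into early elongating spermatids, where 20 of 52 members and 18.4% of all genes fell, 6 of 19 dynein arm subunits, 5 of 16 assembly and docking genes, 6 of 18 spoke, regulatory complex and ruler genes and 9 of 25 intraflagellar transport genes fell, and the transport gene Ift172 rose. None of 10 central apparatus genes of other names fell there, and Spatc1 rose. Of 15 doublet lumen genes of other names, 2 fell (Nme7 and Mns1) and Tekt5 rose. Into elongating spermatids, where 21.5% of all genes fell (7.84% with TMM), 10 of these 15 fell, as did 9 of 18 spoke, regulatory complex and ruler genes. So did 6 of 16 assembly and docking genes, 4 of 19 dynein arm subunits and 2 of 10 central apparatus genes. Falls also came in 4 of 25 transport genes and 4 of 9 transcription factors. Into pachytene 30.2% of all genes rose with TMM. Summed over the lists, 7 counts of rises or falls by step moved beyond 1.5 times with TMM and 9 did not. With median-ratio factors 8 moved and 8 did not. Folds of 1.5 and of 3 each moved 12 and left 4. Counts of single lists were not remade under these settings.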

How the data were processed

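The deposited table holds raw UMI counts per gene and barcode, whole numbers and not normalised, from 10x 3′ libraries; Cell Ranger 1.3.1, Seurat 3.2.2 and the build GRCm38 are listed, with no role, per the submitters' processing notes, which do not state a filter on barcodes. Members and gene lists were chosen with earlier results of these data known. Barcodes were gated on marker UMIs and depth. Per 10000 UMIs, pachytene needed 15 pachytene marker UMIs and the diplotene or dividing gate 20 of its own. Early round spermatids needed 35 early round marker UMIs, and later round spermatids 45 of these and 18 later round ones. Early elongating spermatids needed 300 to 1500 protamine and transition protein UMIs, at least 36% from transition proteins, and 18 later round marker UMIs. Elongating spermatids needed 1500, with 30% or more from transition proteins, and condensing spermatids 900, with under 15%. Spermatogonia needed 5 marker UMIs from 2 genes. Entry spermatocytes needed 4 preleptotene marker UMIs, or 4 leptotene to zygotene ones from 2 genes and at 2 per 10000. Minimum depth was 15000 UMIs in pachytene, 12000 in dividing, round and early elongating gates and 7000 in elongating spermatids. Differences between gates are partly set by the gating. Doublets were not called, and the top 5% of UMIs was left out as an alternative. Another alternative subtracted free RNA with the profile of the ungated barcodes. From spermatogonia to early round spermatids, all Prm1, Prm2, Tnp1 and Tnp2 UMIs were taken as free RNA to set its amount. Later gates were given the median amount of those gates under each mark, which came to 55.4% and 52.1% of the UMIs of condensing spermatids.

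Counts were summed per gate and mark and scaled to CPM (total UMIs of 1000000). With 1 library per genotype and no map of marks to genotypes there was no test; levels carry exact Poisson and ratios exact conditional binomial 95% intervals, which cover counting error only. The median log2 differences add 1 CPM. A gene was tested with at least 20 UMIs over both stages under each mark. On simulated counts the rule was tested with known folds. Named members were the 3 of highest CPM in each role, those highest before pachytene, and the pairs Spag6 and Spag6l, Rsph3a and Rsph3b, Rsph4a and Rsph6a; for pathway lists, the 2 of largest ratio. Not all of these are printed, and members outside the rule were named after their values were seen. Positions are from GENCODE M21 (GRCm38) for 52 members and from RefSeq tables of GRCm38.p6 for Cfap47 and Cfap410. Tools were Python 3.11.15, numpy 2.4.6, scipy 1.17.1, R 4.3.3 and edgeR 4.0.16, the last for TMM factors alone.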

Additional observations from a re-analysis of the deposited data

How the results depend on the processing

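Each alternative changed one choice in the counts of members past the 2-fold rule, given in brackets after each count as reported. With TMM factors, 0 fell into pachytene (2), 1 rose into later round spermatids (0), and into elongating spermatids 1 rose (0) and 5 fell (18). Over all genes TMM gave 10.4% lower into pachytene, 10.9% higher into later round, and 12.3% higher and 7.84% lower into elongating spermatids. With median-ratio size factors 15 rose into the diplotene or dividing gate (9), 1 rose into later round (0) and 9 fell into early elongating spermatids (20). Into elongating spermatids 1 rose (0) and 5 fell (18). The shares of all genes were 15.3% higher, 9.96% higher, 7.54% lower, and 11.8% higher and 8.43% lower at these steps. TMM and median-ratio factors shift every gene by up to 0.86 on the log2 scale. A fold of 1.5 gave 1 rise into the entry gate (0), and 16 rises and 2 falls into the dividing gate (9 and 0). It gave 11 and 13 into early round (7 and 3) and 2 and 6 into later round (0 and 0). Into elongating spermatids it gave 1 and 28 (0 and 18), and into condensing spermatids 29 rises (0). At this fold 4.38% of all genes rose into the entry gate and 26.7% into condensing spermatids. The all-gene shares of rises and falls were 18.6% and 33.6% (dividing), 27.1% and 22.6% (early round) and 14.4% and 11.5% (later round). Into elongating spermatids they were 5.2% and 31.0%. The 13 falls into early round were 24.5% of tested members and the 6 into later round 11.3%, near the shares of all genes. A fold of 3 gave 12 rises and 0 falls into pachytene (29 and 2) and 1 rise into the dividing gate (9). It gave 4 and 0 into early round (7 and 3), and 0 and 5 into early elongating spermatids (1 and 20). Into elongating spermatids 7 fell (18). Then 6.11% of all genes rose and 12.0% fell into pachytene, and 5.45% rose into the dividing gate. Rises and falls into early round were 15.7% and 5.65%, and into early elongating 6.75% and 5.17%. Falls into elongating spermatids were 10.8%. With no minimum of UMIs, 1 more member fell into the entry, dividing and later round gates each (0). There 3.58%, 23.5% and 4.24% of all genes fell.

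With free RNA subtracted, 1 rose into the entry gate (0), 0 fell into pachytene (2) and 7 fell into early round (3). All-gene shares at these steps were 3.4% higher, 22.3% lower and 16.9% lower. Into later round 1 rose and 2 fell (0 and 0), against 11.7% and 6.79% of all genes. Into elongating spermatids 35 of 45 tested fell (18 of 52), against 49.4% of all genes. Into condensing spermatids 1 rose (0) and 12 of 19 tested fell (1 of 52), against 7.26% and 56.2% of all genes. From later round spermatids on, the amount subtracted was assumed from the earlier gates. With stricter gates 17 rose into the dividing gate (9), 8 fell into early round (3) and 1 fell into later round spermatids (0). Into pachytene 20 rose (29). All-gene shares at these steps were 14.8% higher, 16.6% lower, 2.43% lower and 12.2% higher. Mark 1 alone gave 1 rise and 1 fall into the entry gate (0 and 0) and 7 falls into early round (3). It gave 2 falls into later round (0) and 2 rises into condensing spermatids (0). Under mark 1, 3.48% of all genes rose and 2.68% fell into the entry gate. Falls were 17.0% into early round and 6.0% into later round, and rises 7.92% into condensing spermatids. Mark 2 alone gave 1 rise into later round (0) and 1 into elongating spermatids (0), where 9.37% and 5.37% of all genes rose. Without the top 5% of UMIs no count moved beyond 1.5 times. By UMIs per barcode 0 members were highest in the entry gate (1), 8 in early round (14), 0 in elongating (1) and 0 in condensing spermatids (1); stricter gates left 0 in the entry and elongating gates (1 each). The ratio of summed CPM in the Sertoli gate to that in early round spermatids was 0.606; by thinned shares it was 0.663 and by UMIs per barcode 0.107, where the Sertoli value is near that of the ungated barcodes. Members at least 2-fold higher in later round spermatids than in pachytene were 17 with TMM and 17 with median-ratio factors (11), the reverse 7 and 7 (12), and those 2-fold lower in elongating than in later round spermatids 21 and 16 (41). Of 90 calls of single members, 20 were lost with TMM, 24 with median-ratio factors, 17 with stricter gates and 60 at a fold of 3, and none turned direction. The causes were not tested. No paired analysis was possible because the marks are not tied to samples and no test was made.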
